A study of Rattus norvegicus with 134 samples.

Results

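The miR-146 family was followed across heart, kidney and liver of rats exposed to heat. Members were every miRNA name of the deposited table that begins with rno-miR-146 or rno-miR-155, whatever its letter or arm. This gave 3 of 185 names, namely rno-miR-146b-5p, rno-miR-146a-5p and rno-miR-146a, and 0 names for miR-155, which is not analysed here. The family was chosen by the heat-stressed minus control values of the heart at 48 h, where miR-146b-5p had been among the names called. Values of the heart at 48 h are therefore given as a description, with no test.

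Fischer 344 rats of the heat-stressed groups were warmed in an incubator at 37.0 °C until the core temperature reached 41.8 °C, a point called Tc,max. They were killed at Tc,max or after 24 h or 48 h of recovery at housing temperature, beside time-matched controls. By the sample labels the controls never entered the incubator, whereas the study's methods place them in one held at room temperature, and no genetic change or drug was used in any group. Heart libraries came from 6 heat-stressed and 5 control rats at Tc,max, 6 and 6 at 24 h, and 6 and 6 at 48 h. Kidney libraries numbered 5 and 5, 6 and 4, and 4 and 5 at these times. Liver libraries came from 6 and 6 rats at Tc,max, with 1 further control at 24 h. Each library of a tissue came from a separate rat, and rat numbers link the tissues of 1 animal. At 48 h some heat-stressed rats had histological injury of heart and kidney, but the labels do not say which, so that all rats of that time formed 1 group.

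miR-146a and miR-146b are paralogues from separate genes. In mouse and human cells, transcription of miR-146a is induced by NF-kB after Toll-like receptor or interleukin-1 receptor signalling, and the miRNA represses the adaptors TRAF6 and IRAK1, which closes a negative feedback loop. miR-146b shares the seed, the short 5′ stretch that pairs with target mRNA, and so shares predicted targets. miR-155, processed from the transcript BIC, is another miRNA of activated macrophages and lymphocytes.

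The mature sequences are shown because the letters in common decide how far reads of the paralogues can be told apart. Capitals mark the seed, bases 2 to 8. Sequences are from RefSeq (build GRCr8) and 2 of the 3 names matched an entry; the name without an arm did not.
rno-miR-146b-5p: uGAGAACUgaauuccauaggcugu
rno-miR-146a-5p: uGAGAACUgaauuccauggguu
The seed is the same in both, and these were the only 2 of 693 mature rat names in that table to hold it. The first 17 bases were identical. Counted from 1 at the 5′ end, with the miR-146a-5p base first, the sequences differed by G18A and U21C, and miR-146b-5p is 24 bases long against 22. The authors mapped reads under a perfect match, so that a read ending before base 18 would match either name, and how such reads were shared is not given in the sources used here.

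The hairpins are shown to place each mature arm, which is in capitals.
Mir146b hairpin: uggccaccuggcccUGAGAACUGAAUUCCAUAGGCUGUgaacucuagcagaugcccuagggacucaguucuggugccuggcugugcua
Mir146a hairpin: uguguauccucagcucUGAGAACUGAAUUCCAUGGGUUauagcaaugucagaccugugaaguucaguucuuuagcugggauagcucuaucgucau
In GRCr8 the Mir146b hairpin lies at chr1:255144860-255144947 on the plus strand, and its 5p arm at chr1:255144874-255144897. The hairpin falls within the bounds of the protein-coding gene C1h10orf95 (chr1:255143264-255157901). Nfkb2, which encodes an NF-kB subunit, ends 30211 bases before it. Mir146a lies at chr10:28349996-28350090 on the minus strand, with the 5p arm at chr10:28350053-28350074. It falls within the long non-coding RNA LOC134480673 (chr10:28346176-28361795). Exons and introns of these genes were not used here, and the files themselves give no coordinates.

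All 3 names were detected in each of the 77 libraries. miR-146b-5p was counted with 15 to 2301 reads, miR-146a-5p with 8 to 694 and miR-146a with 10 to 534. Total reads, recovered from the smallest step of the deposited values, were 126279 to 879245 in heart, 355221 to 2224070 in kidney and 126700 to 379444 in liver libraries. Values are log2(CPM + 1), where CPM is the reads of a name scaled to the total of its library, and means carry the SD and the number of rats. The thinnest liver value of miR-146b-5p, 15 reads of 126700 in a heat-stressed rat, was 118 CPM with an exact 95% binomial interval of 66.3 to 195. Such intervals cover counting error only. In tissue RNA, fewer cells of a type and less RNA per cell cannot be told apart.

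Tissue markers were checked in the same libraries. Names of cardiomyocyte miRNA (miR-1, miR-133, miR-208 and miR-499) summed to 42781 to 121478 CPM in 33 of the 35 heart libraries. The heart library labelled rat 306 had 28323 CPM, and that labelled rat 307 had 323 CPM, near the 86.4 to 229 CPM of the kidneys. The library labelled rat 307 also held 8550 CPM of epithelial names (the miR-200 family and miR-141), against 31.8 to 170 CPM in the 33 hearts and 5151 to 9225 CPM in the kidneys. Its tubule names (miR-192 and miR-194, also abundant in liver) stood at 600 CPM, below every kidney library. The kidney library of rat 307 had 6376 CPM of tubule names, where the other heat-stressed kidneys of 48 h had 66505 to 88559 CPM. Liver libraries held 13879 to 21727 CPM of the hepatocyte names of miR-122. Results that rest on rats 306 and 307 are therefore given with and without them.

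In control rats at Tc,max, miR-146b-5p was highest in heart and lowest in liver. Heart controls had 9.42, 8.72, 8.81, 9.12 and 8.99. Kidney controls had 7.73, 7.77, 7.28, 8.76 and 8.78. Liver controls ran from 6.83 to 7.20 with a median of 7.07. Every liver control lay below every heart and every kidney control, whereas 2 kidney controls lay within the range of the hearts.

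The liver mean was 7.03 ± 0.16 (SD, n = 6) and the heart mean 9.01 ± 0.27 (SD, n = 5), so that the liver fell by 1.98 on the log2 scale. This difference passed limma treat, which tests against a minimum fold change (SE 0.38, 95% interval -2.75 to -1.21, adjusted p = 6.71e-05). Over all names 122 of 185 were called between these tissues (65.9%). The kidney mean of 8.07 ± 0.67 (SD, n = 5) lay 0.95 below the heart (log2 difference -0.95, SE 0.40, adjusted p = 0.137 by limma), and 74 of 185 names were called there (40%). It lay 1.03 above the liver (SE 0.38, adjusted p = 0.0569 by limma), where 109 of 185 names were called (58.9%). With the rat as a replicate block this value was 1.05 and passed (adjusted p = 0.0353), and it also passed without kidney rat 292 (1.23, adjusted p = 0.0263) or with every library of rat 307 left out of the fit (1.03, adjusted p = 0.0344). In exact permutation tests of the means, adjusted over the 5 tissue comparisons of miR-146b-5p, liver differed from heart (adjusted p = 0.00541) and from kidney (adjusted p = 0.00541), and kidney from heart (adjusted p = 0.0397). These permutations treated the libraries as independent, although the same rats gave several tissues, and the pairing by rat was not used. A tissue is also a size-selection pool and a flow cell lane here, which cannot be told apart from it. In comparisons with heart the homogenisation method cannot be told apart either, since hearts were milled and the other organs bead-beaten.

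Kidney means stayed below heart means in the later controls. The difference did not pass limma at 24 h, and that of 48 h is a description. At 24 h kidney controls had 7.08, 7.21, 7.65 and 7.73 and heart controls 7.76 to 8.78 with a median of 8.27, so that the groups did not overlap. The log2 difference was -0.81 (SE 0.41, adjusted p = 0.225 by limma), with 76 of 185 names called (41.1%). The exact permutation test gave an adjusted p of 0.0159. At 48 h the difference was -0.51, and 3 of 5 kidneys lay below every heart. Over all names limma called 82 of 185 there (44.3%). These heart controls belong to the contrast that chose the family, so no p-value is given. The comparison counts only among the 5 over which permutation p-values were adjusted.

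The miR-146a names, in contrast, had their highest control means at Tc,max in liver. miR-146a-5p averaged 8.90 ± 0.27 (SD, n = 6) in liver, 8.56 ± 0.24 (SD, n = 5) in heart and 8.43 ± 0.27 (SD, n = 5) in kidney at Tc,max. The name miR-146a averaged 8.85 ± 0.31, 8.13 ± 0.32 and 8.16 ± 0.19 in the same rats. No difference of either name passed limma, the adjusted p running from 0.143 to 0.98. For miR-146a, 5 of 6 livers lay above every heart and the log2 difference was 0.72 (95% interval 0.11 to 1.33, adjusted p = 0.143 by limma; adjusted p = 0.0108 by exact permutation). With median-ratio scaling that difference passed limma, as it did without a minimum fold change (0.72, adjusted p = 0.0293) and with the libraries of rat 307 left out of the fit (0.72, adjusted p = 0.0429). By exact permutation the kidney differed from the liver in miR-146a (adjusted p = 0.0108) but not in miR-146a-5p (adjusted p = 0.0595). At 24 h all 4 kidney controls exceeded all 6 heart controls for both names, which are not independent measures. Over all names limma called 76 of 185 there (41.1%), and the share of names without overlap was not counted. The log2 difference was 0.75 for miR-146a-5p (adjusted p = 0.244 by limma; adjusted p = 0.0238 by exact permutation). It was 0.70 for miR-146a (adjusted p = 0.228 by limma; adjusted p = 0.0108 by exact permutation).

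Across 14 groups with replicates and 1 single library, the means of miR-146b-5p took the following order. Heat-stressed hearts at 48 h stood highest at 9.93 ± 1.48 (SD, n = 6), followed by control hearts at Tc,max at 9.01, heat-stressed hearts at 24 h at 8.86 ± 0.60 (SD, n = 6) and at Tc,max at 8.60 ± 0.40 (SD, n = 6). Control hearts at 24 h had 8.23 ± 0.40 and at 48 h 8.01 ± 0.38 (SD, n = 6 each). Kidney means ran from 7.22 to 8.07, and the heat-stressed livers at 6.98 ± 0.17 (SD, n = 6) and control livers at 7.03 lay below them. The single liver control at 24 h had 6.37. Each mean differed from its neighbour in this order by less than the larger SD of the pair, the single library apart. The widest SDs were 1.48 in heat-stressed hearts and 1.34 in heat-stressed kidneys, both at 48 h.

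**Figure D1:**
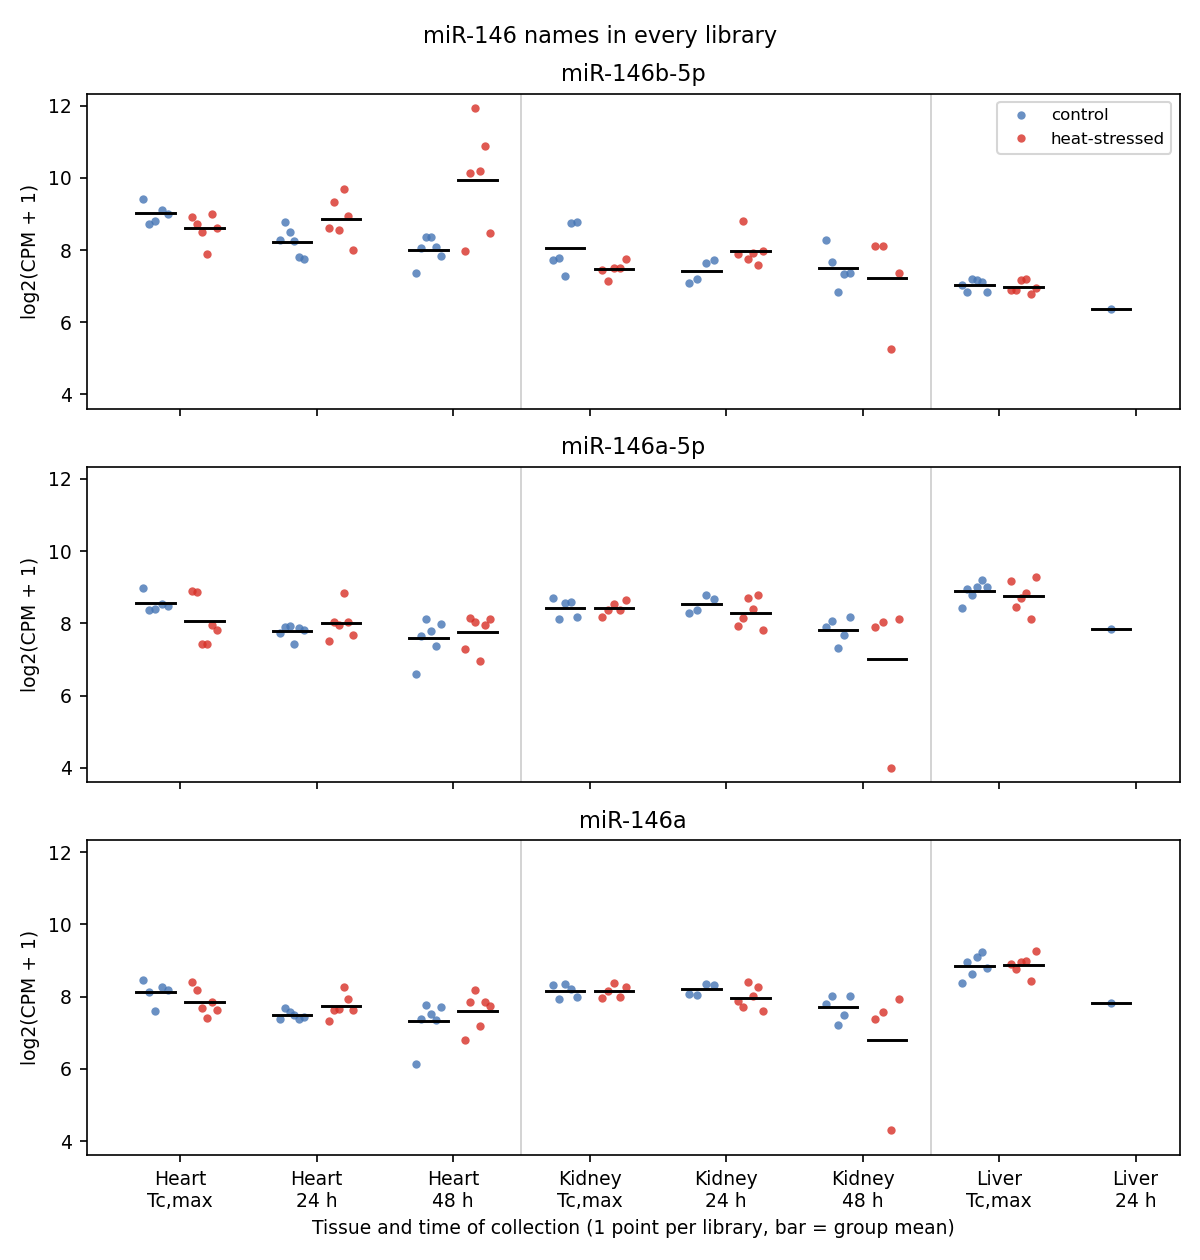
The 3 panels plot log2(CPM + 1) of miR-146b-5p, miR-146a-5p and miR-146a in each of the 77 libraries, by tissue and time, with controls in blue, heat-stressed rats in red and group means as black bars. miR-146b-5p reached 11.94 in a heat-stressed heart at 48 h, and all 3 names were lowest in 1 heat-stressed kidney at 48 h (5.27, 4.00 and 4.31).

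The levels of the paralogues can be set against each other within a library, where depth and scaling cancel. miR-146b-5p exceeded miR-146a-5p in 31 of 35 hearts, in 8 of 29 kidneys and in 0 of 13 livers. The median difference was 0.58 in heart, -0.72 in kidney and -1.66 in liver, on the log2 scale. Livers ran from -2.32 to -1.34 and hearts from -0.15 to 3.91, so that the tissues did not overlap. Kidneys ran from -1.29 to 1.27 and overlapped hearts alone. In linear terms miR-146b-5p averaged 1.37 times miR-146a-5p in control hearts at Tc,max, 0.776 times in control kidneys and 0.274 times in control livers (geometric means). No test was made of these ratios. They leave out the name miR-146a, and how reads were divided between the 2 miR-146a names is not given. Heart medians were 387 CPM for miR-146b-5p, 245 CPM for miR-146a-5p and 199 CPM for miR-146a. The order in heart could therefore differ if both miR-146a names were summed, which was not done.

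**Figure D2:**
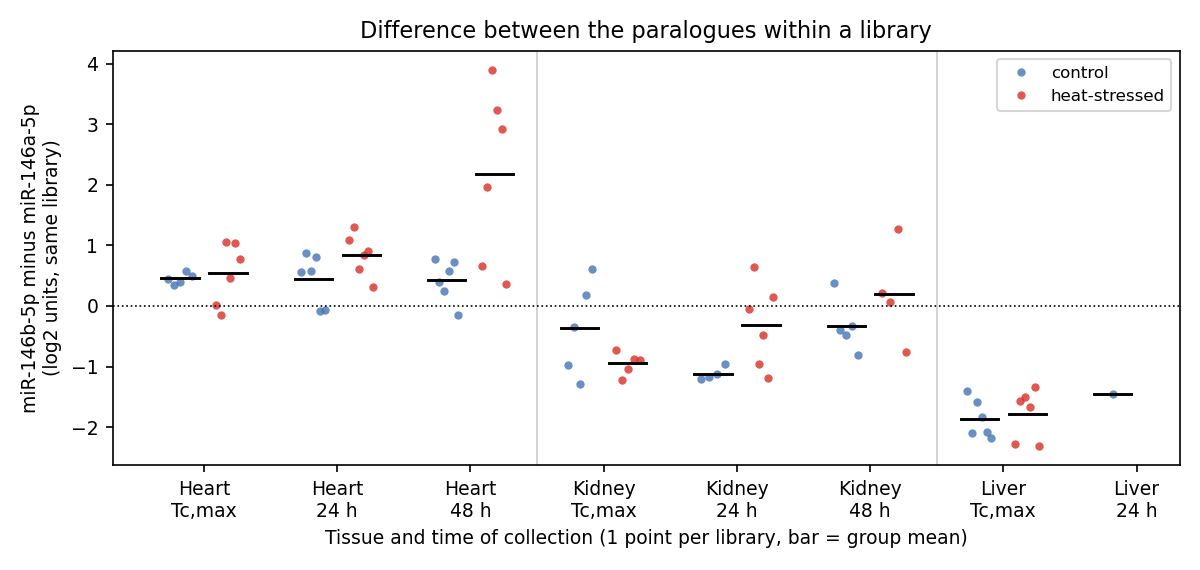
Each point is 1 library and gives miR-146b-5p minus miR-146a-5p in log2 units, by tissue and time, with controls in blue, heat-stressed rats in red and bars at group means. All 13 livers lie below 0 and 31 of 35 hearts above it, and the highest value is 3.91 in a heat-stressed heart at 48 h. Reads under the name miR-146a are not included.

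The name miR-146a tracked miR-146a-5p closely. It stood above it in 4 of 35 hearts, 1 of 29 kidneys and 7 of 13 livers, with differences from -0.81 to 0.31. Over all libraries of a tissue the Pearson r between these names was 0.89 in heart (n = 35 libraries), 0.99 in kidney (n = 29) and 0.90 in liver (n = 13). It was 0.93 in kidney without rat 307. Whether reads were shared between these names is not given in the sources used here, so that they are not independent measures. For miR-146b-5p and miR-146a-5p the r was 0.33 in heart, or 0.75 without the heat-stressed hearts of 48 h, and in kidney 0.64, or 0.058 without rat 307.

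Heat-stressed hearts at 48 h held more miR-146b-5p than controls, which is the value on which the family was selected. Heat-stressed rats 304 to 309 had 7.97, 10.12, 11.94, 10.19, 10.87 and 8.47. Controls ran from 7.37 to 8.37 with a median of 8.07. Rat 304 lay within the controls, rat 309 just above them, and the other 4 were between 2.11 and 3.93 above the control mean. In counts, rat 306 had 2301 reads of 587242, or 3918 CPM (95% binomial interval 3760 to 4081), and rat 304 had 137 reads of 549584, or 249 CPM (209 to 295).

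The mean difference was 1.92 on the log2 scale, or 3.77-fold, with a median over all names of 0.16. It was 1.86 without rat 307, 1.51 without rat 306 and 1.35 (2.54-fold) without either, when 3 of 4 heat-stressed rats still exceeded every control. Among other names, miR-21 differed by 2.11, miR-21-3p by 2.25 and miR-222 by 1.63. As background, limma called 2 of all 163 names in this contrast (1.23%), and nothing is read from that share for the family, which was chosen there.

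miR-146a-5p and miR-146a showed little of this. miR-146a-5p averaged 7.75 ± 0.50 in heat-stressed hearts and 7.58 ± 0.55 in controls (SD, n = 6 each), and 1 of 6 heat-stressed rats exceeded every control. miR-146a averaged 7.60 ± 0.51 against 7.31 ± 0.61, with 3 of 6 above every control. The differences were 0.17 and 0.29 on the log2 scale, beside the median over all names of 0.16, and 0.33 and 0.37 without rat 307. Without control rat 311, the lowest of the controls, they were -0.030 and 0.051. Within libraries the excess of miR-146b-5p over miR-146a-5p was 0.67, 1.96, 3.91, 3.24, 2.92 and 0.36 in rats 304 to 309, and -0.15 to 0.77 in the controls. The 4 rats with high miR-146b-5p thus had ratios above all controls, while rats 304 and 309 did not.

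Other measures also varied among the heat-stressed hearts of 48 h, and no marker list placed all of rats 305 to 308 outside the controls. The 4 measured leukocyte names (3 of miR-142 and miR-150-5p) summed to 3576 CPM in rat 306 and 3128 CPM in rat 308, the rats with the most miR-146b-5p, and to 1104 to 1672 CPM in the other 4. Controls ranged from 627 to 2284 CPM, and the median was 1539 CPM in heat-stressed hearts and 1775 CPM in controls. The leukocyte names did not move alike. Mean log2 differences were 0.84 for miR-142-3p, 0.45 for miR-142, 0.17 for miR-142-5p and -0.37 for miR-150-5p. The highest heat-stressed value of miR-150-5p, 9.90, lay below the highest control at 10.31. Cardiomyocyte names stood at 74098 CPM in rat 308, below all controls (85370 to 121478 CPM), as in rats 306 and 307, and at 95788 to 114006 CPM in the other 3. Smooth muscle and fibroblast names (miR-143, miR-145 and miR-199a) summed to 360042 CPM in rat 306 and 212264 CPM in rat 307, above the controls at 86032 to 178175 CPM. Endothelial names of miR-126 exceeded the controls (9288 to 20187 CPM) in rat 307 with 42942 CPM and in rat 308 with 23306 CPM. The erythroid miR-451 exceeded them (41.6 to 122 CPM) in rats 305, 306 and 308, with 186, 172 and 230 CPM. Rats 304 and 309, with the least miR-146b-5p, lay within the controls for these 3 lists. Total reads were 126279 in rat 308 and 194846 in rat 307, below all controls of that time. The part of these in the result was not tested.

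At Tc,max, when heat exposure ended, heart means of the family were lower in heat-stressed rats, without passing the test. miR-146b-5p in heat-stressed hearts ran from 7.88 to 8.99 with a median of 8.66, and 4 of 6 lay below every control. The difference was -0.41 (SE 0.43, 95% interval -1.28 to 0.46, adjusted p = 0.999 by limma; adjusted p = 0.139 by exact permutation over 6 heat comparisons). It was -0.49 for miR-146a-5p and -0.26 for miR-146a, with a median over all names of -0.20. limma called 0 of 163 names (0%), and 3 had an unadjusted p under 0.05.

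At 24 h heat-stressed hearts ran from 8.01 to 9.69 in miR-146b-5p with a median of 8.77, and 3 of 6 exceeded the highest control at 8.78. The difference of 0.63 (SE 0.41, 95% interval -0.20 to 1.46) did not pass the test (adjusted p = 0.999 by limma; adjusted p = 0.139 by exact permutation). miR-146a-5p differed by 0.23 and miR-146a by 0.24, and the median over all names was 0.082. Again 0 of 163 names were called (0%), and 0 had an unadjusted p under 0.05. Controls of the heart were themselves lower at 24 h than at Tc,max by 0.78 in miR-146b-5p (adjusted p = 0.994 by limma), where 3 of 163 names were called (1.84%).

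**Figure D3:**
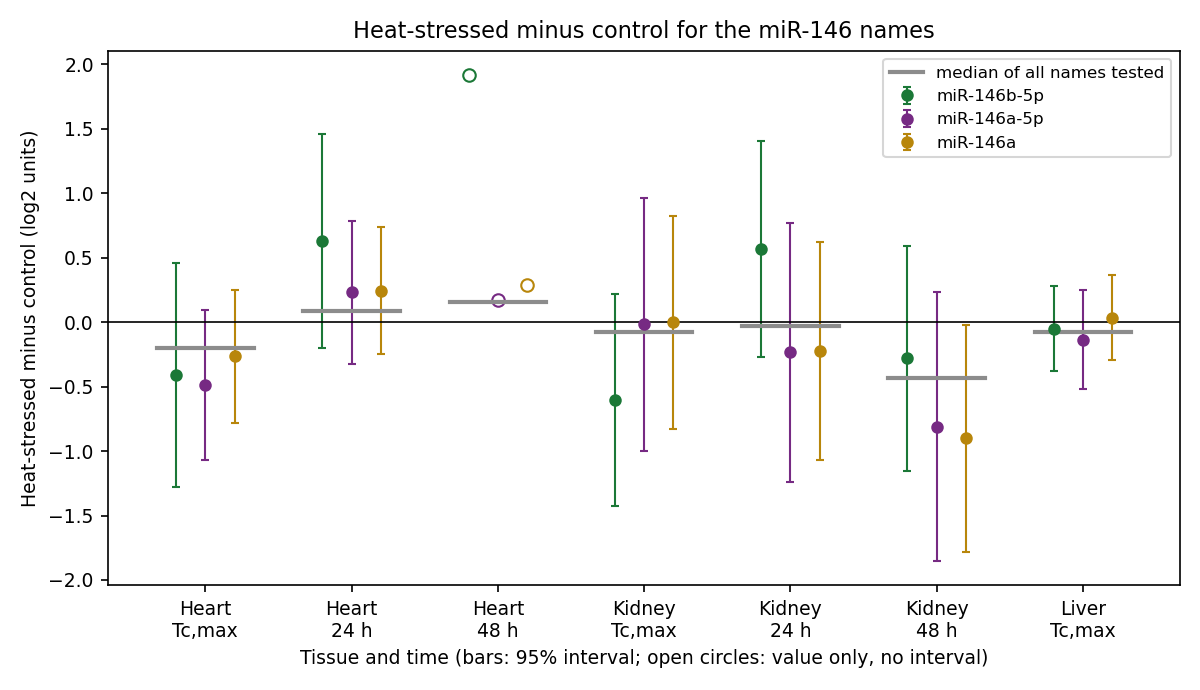
Points give heat-stressed minus control means in log2 units for the 3 names in each tissue and time, with 95% intervals from limma, and grey lines give the median of all names tested. Open circles for the heart at 48 h carry no interval, and miR-146b-5p stands there at 1.92. Every tested interval but that of miR-146a in the kidney at 48 h includes 0. Heart and kidney intervals rest on the variance of all groups of the tissue, the heat-stressed rats of 48 h included.

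In the kidney miR-146b-5p was lower at Tc,max and higher at 24 h after heat, in neither case past limma. Heat-stressed kidneys at Tc,max had 7.45, 7.14, 7.50, 7.49 and 7.74, of which 1 lay below the control values given above and 4 within their range. The difference was -0.60 (SE 0.40, 95% interval -1.42 to 0.22, adjusted p = 0.999 by limma; adjusted p = 0.143 by exact permutation). Total reads of 4 of these 5 libraries lay below all controls, and the part of depth in this value was not tested. At 24 h heat-stressed kidneys ran from 7.59 to 8.79 with a median of 7.89, and 5 of 6 exceeded the highest of the 4 controls at 7.73. That difference was 0.57 (SE 0.41, 95% interval -0.27 to 1.41, adjusted p = 0.999 by limma). The exact permutation test gave p = 0.0381, or 0.139 adjusted over 6 heat comparisons. With every library of rat 307 left out of the fit, the SE was 0.27 at Tc,max and 0.28 at 24 h. Neither difference passed limma then.

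miR-146a-5p and miR-146a were not higher at 24 h. They differed by -0.23 and -0.22 in the kidney, and by -0.018 and -0.00097 at Tc,max. Within libraries miR-146b-5p minus miR-146a-5p averaged -0.32 ± 0.69 in heat-stressed kidneys at 24 h (SD, n = 6) and -1.12 ± 0.11 in controls (SD, n = 4), whose values ran from -1.21 to -0.95. Heat-stressed rats 299 (-0.954) and 301 (-1.20) lay within that range. Control kidneys of the other times were near the heat-stressed mean, with -0.37 ± 0.79 at Tc,max and -0.33 ± 0.43 at 48 h (SD, n = 5 each). limma called 0 of 175 names at Tc,max (0%) and 0 of 175 at 24 h (0%), with 0 names at an unadjusted p under 0.05 in each.

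Kidney values at 48 h turned on rat 307. Heat-stressed rats 305, 306, 307 and 309 had 8.12, 8.11, 5.27 and 7.37 of miR-146b-5p, 7.90, 8.04, 4.00 and 8.12 of miR-146a-5p, and 7.39, 7.58, 4.31 and 7.94 of miR-146a. Controls ran from 6.84 to 8.28, 7.32 to 8.17 and 7.21 to 8.03. Rat 307 lay below all controls and the other 3 within their range for each name. The differences of -0.28, -0.81 and -0.90 became 0.37, 0.19 and -0.070 without rat 307, and the median over all names was -0.43 with it. limma gave adjusted p = 0.861, 0.414 and 0.296 with rat 307, and called 0 of 175 names (0%), 29 having an unadjusted p under 0.05. In rat 307 the low kidney values rested on 20, 8 and 10 reads of 532473. Its leukocyte names (208 CPM) and endothelial names (4237 CPM) also lay below all controls, which had 1154 to 1579 CPM and 7636 to 10883 CPM.

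The liver at Tc,max gave overlapping values in heat-stressed and control rats. miR-146b-5p ran from 6.78 to 7.19 with a median of 6.92 in heat-stressed livers, against 6.83 to 7.20 in controls. The difference was -0.052 (SE 0.16, 95% interval -0.38 to 0.28, adjusted p = 1 by limma). miR-146a-5p differed by -0.14 and miR-146a by 0.032. limma called 0 of 176 names (0%), with 2 at an unadjusted p under 0.05.

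Whether heat moved miR-146b-5p differently in the organs was tested as an interaction. The heat effect in kidney minus that in heart was -0.19 at Tc,max (95% interval -1.30 to 0.92, adjusted p = 0.996 by limma) and -0.062 at 24 h (-1.16 to 1.03, adjusted p = 1 by limma). Liver minus heart at Tc,max was 0.36 (-0.70 to 1.42, adjusted p = 0.998 by limma). Of 185 names 0 were called in each of the 3 (0%), with 2, 0 and 4 at an unadjusted p under 0.05. Kidney controls differed between times by -0.65 from Tc,max to 24 h and by 0.082 from 24 h to 48 h, with 0 of 175 names called in both (0%), and 2 and 5 at an unadjusted p under 0.05. Deviations of heart and kidney from their group means in the same rat had a Pearson r of 0.13 and a Spearman rho of 0.10 for miR-146b-5p over 27 rats, or -0.072 without the 2 farthest rats.

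The names most like miR-146b-5p were sought among all names kept in a tissue. In the heart they were miR-222 (r = 0.82), miR-21 (0.81), miR-21-5p (0.81), miR-21-3p (0.79) and miR-221-3p (0.72) over 35 libraries. miR-21 is induced by STAT3 and by injury in many tissues and represses Pdcd4, and miR-221 and miR-222 come from 1 cluster and repress the cell cycle inhibitor Cdkn1b. Their sequences are given to show that none shares the miR-146 seed, and capitals again mark bases 2 to 8.
rno-miR-21-5p: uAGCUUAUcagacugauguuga
rno-miR-21-3p: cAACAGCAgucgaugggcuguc
rno-miR-221-3p: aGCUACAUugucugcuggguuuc
The likeness rested largely on the heat-stressed hearts of 48 h. Without these 6 libraries the r fell to 0.43 for miR-222, 0.24 for miR-21, 0.30 for miR-21-5p, 0.58 for miR-21-3p and 0.12 for miR-221-3p. The least alike were miR-30e (-0.63), miR-22-3p (-0.58) and miR-22 (-0.53). These values share library depth and composition and the contrast that chose the family, and are a description.

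Rat by rat, heat-stressed hearts at 48 h had 11.01, 12.54, 15.12, 13.62, 15.26 and 11.50 of miR-21 in rats 304 to 309, where controls ran from 10.84 to 11.48. Rats 305 to 308 were thus high and rats 304 and 309 at or near the controls, as for miR-146b-5p. miR-222 had 6.13, 7.08, 9.76, 8.32, 8.99 and 6.60 in the same rats, with controls at 5.49 to 6.64. miR-21-3p differed in that rat 307 had 4.43, within the controls at 3.03 to 4.75, while rats 306 and 308 had 9.09 and 8.87.

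**Figure D4:**
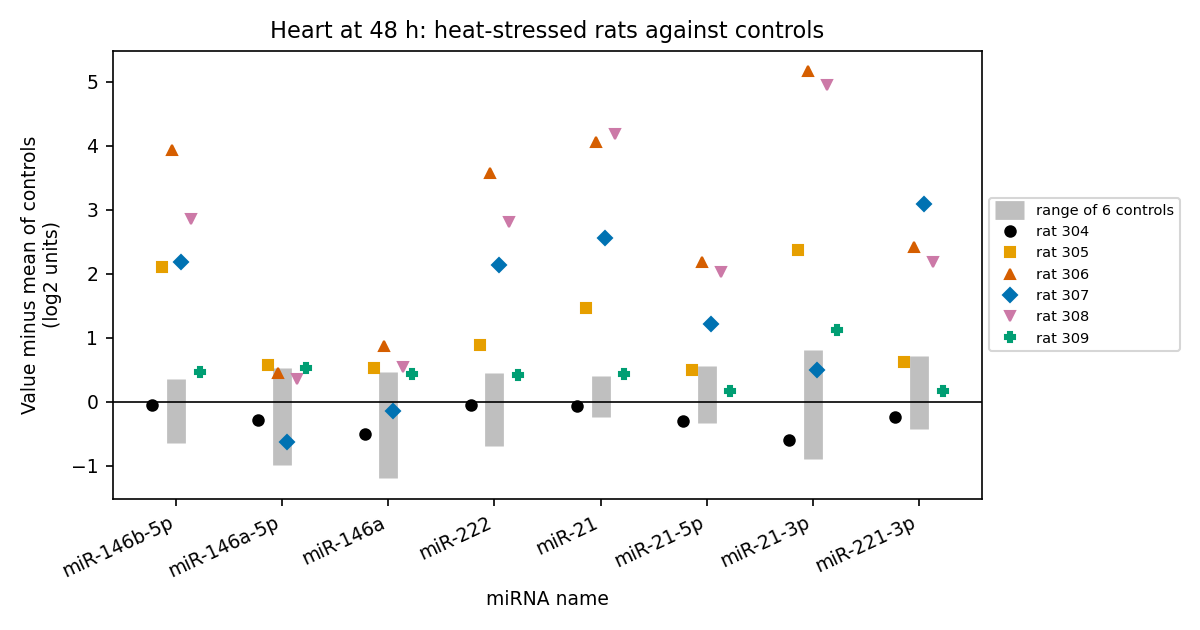
Symbols give each heat-stressed heart at 48 h minus the mean of the 6 controls, in log2 units, for the miR-146 names and the 5 names most like miR-146b-5p, and grey bars span the controls. Rats 305 to 308 stand at 2.11 to 3.93 for miR-146b-5p, while miR-146a-5p runs from -0.63 to 0.58.

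In the kidney the names most like miR-146b-5p were miR-21-5p (r = 0.81, or 0.62 without rat 307), miR-21-3p (0.77, or 0.50), let-7d-5p (0.77, or 0.49), miR-199a-3p (0.72, or 0.33) and miR-28-5p (0.70, or 0.28) over 29 libraries. Arms of miR-21 were thus among the 5 nearest names in both organs. In the liver the nearest were miR-100-5p (r = 0.79), miR-3586-3p (0.77), miR-151-5p (0.76), miR-98-5p (0.74) and miR-351-5p (0.71) over 13 libraries, with the lowest r for miR-101b-3p (-0.75).

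A wider list of names tied to NF-kB, STAT3 or Toll-like receptor signalling or macrophage activation held 33 miRNA, of which 24 were measured under 42 names, the miR-146 names included. Of the 36 tested in the heart, 32 were higher in heat-stressed than control rats at 24 h (median 0.16), beside 117 of all 163 names (median 0.082), with 0 called. At Tc,max 7 of 36 were higher (median -0.24), beside 43 of 163 (median -0.20), with 0 called. At 24 h the largest differences were 1.29 for miR-31a-5p, 0.63 for miR-146b-5p, 0.56 for miR-21-3p, 0.51 for miR-222 and 0.45 for miR-21. In the heart at 48 h 28 of 36 were higher (median 0.20), beside 105 of 163 (median 0.16), and without rats 306 and 307 these counts were 29 (median 0.16) and 119 (median 0.11).

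In the kidney 15 of 42 list names were higher after heat at Tc,max (median -0.12), beside 76 of all 175 names (median -0.077), and 22 of 42 at 24 h (median 0.018), beside 74 of 175 (median -0.028). At 48 h 8 of 42 were higher (median -0.68), beside 59 of 175 (median -0.43). Without rat 307 the counts at 48 h were 23 of 42 (median 0.029) and 82 of 175 (median -0.0095). No list name was called at any of these times. The largest differences at 48 h were -1.97 for miR-31a-5p, -1.54 for miR-31a, -1.45 for miR-27a-3p, -1.42 for miR-27b-3p and -1.30 for miR-125b-2-3p, which became -1.25, -1.07, -0.32, -0.10 and -0.012 without rat 307. The largest difference at 24 h was 0.68 for miR-21 (adjusted p = 0.999 by limma), with 5 of 6 heat-stressed kidneys above all 4 controls, as for miR-146b-5p and miR-21-3p. In the liver at Tc,max 14 of 42 were higher (median -0.098), beside 54 of 176 (median -0.076), and the largest difference was -0.90 for miR-125b-2-3p, with all 6 heat-stressed livers below every control (adjusted p = 0.373 by limma).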

How the data were processed

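The authors trimmed the reads with cutadapt 2.6, collapsed them, mapped them to rat miRBase sequences under a perfect match and deposited log2(CPM + 1) values. The members and lists were chosen with earlier results of these data known. Low values were whole multiples of 1 step per library (1154 of 1154 within 0.05 of a read), which gave reads and depth. limma 3.58.1 in R 4.3.3 was run on the log2 values with all conditions of a tissue (or all tissues) in 1 fit, using treat (minimum fold change 1.25, mean-variance trend) and a Benjamini-Hochberg FDR of 0.05. Names entered where every library of some condition had 5 reads or more. The study's count test was not run, since the deposited values are not counts. Two-sided exact permutation tests compared means without the pairing of tissues by rat, adjusted per name over 5 tissue or 6 heat comparisons. The smallest p they allow is 0.00216 to 0.00794. Fold changes are on the log2(CPM + 1) scale.

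The named miRNA are the members, the 5 names of highest and the 3 of lowest Pearson r with miR-146b-5p per tissue, and the 5 list names of largest difference. Rat numbers pair tissues of 1 animal, and duplicateCorrelation (statmod 1.5.0) with the rat as block gave a correlation of 0.20. Results were recomputed with each library left out, RLE (median-ratio) scaling, log2(CPM + 5), pooled controls, mature arms alone, the compared groups alone, no minimum fold and no filter. Leaving out hearts 306 and 307 was chosen after seeing the data. Tests were tried on simulated data. Other steps ran in Python 3.11.15 (matplotlib 3.10.9, pandas 2.3.3, scipy 1.17.1, numpy 2.4.6). Lung libraries, and liver libraries after Tc,max beyond 1 control, were not analysed here. Grouping came from the sample labels, and the table's own 3 label columns stayed unused.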

Additional observations from a re-analysis of the deposited data

Results flagged for a closer look

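Of 42 groups of 4 to 6 libraries, 5 held a library far from the others by Dixon's test at 95%. Chance alone flags about 1 in 20 groups. The kidney of rat 307 at 48 h was far below the other heat-stressed kidneys in miR-146a-5p (4.00, others 7.90 to 8.12) and miR-146a (4.31, others 7.39 to 7.94), on 8 and 10 reads. The heat-stressed kidney of rat 298 at 24 h was high in miR-146b-5p (8.79, others 7.59 to 7.97). The control heart of rat 288 at Tc,max was high in miR-146a-5p (8.97, others 8.37 to 8.53). The control heart of rat 311 at 48 h was low in miR-146a (6.12, others 7.36 to 7.78). Causes were not tested.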

How the results depend on the processing

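Of 726 values under alternatives for 39 tested differences, 672 kept direction and call, 0 lost a call, 12 gained one and 42 changed sign, in differences that were not called. The heart at 48 h had no test; of its 62 values 3 changed sign, namely miR-146a-5p (-0.19) and miR-146a (-0.016) with pooled controls and miR-146a-5p without control rat 311 (-0.030). Of 134 counts of called names 12 moved by over 1.5 times. With controls of all times pooled, heart at Tc,max gave 0.22, 0.13 and 0.25 (miR-146b-5p, miR-146a-5p, miR-146a), kidney at Tc,max 0.17 and 0.15 for the miR-146a names, kidney at 24 h 0.0531 for miR-146a-5p, and liver 0.0424 for miR-146b-5p and 0.0145 for miR-146a-5p. With RLE scaling, kidney at Tc,max gave 0.0459 for miR-146a-5p and 0.0633 for miR-146a, kidney at 48 h 0.0873 and liver 0.0109 for miR-146b-5p, kidney minus heart in controls -0.0789 for miR-146a, and 0.0562 for the heat effect of miR-146b-5p at 24 h. Without rat 307, kidney at 48 h gave 0.37 for miR-146b-5p and 0.19 for miR-146a-5p. The cause was not tested.

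Calls gained in controls at Tc,max were kidney minus heart for miR-146b-5p (-1.05 with RLE, -0.95 with no fold threshold), liver minus heart for miR-146a (1.006 with RLE, 0.72 with no threshold or without rat 307), kidney minus liver for miR-146b-5p (1.03 with no threshold or without rat 307, 1.05 with the replicate block), for miR-146a-5p (-0.86 with RLE) and for miR-146a (-1.08 with RLE, -0.69 with no threshold). The replicate block, paired by rat, changed no other call. Over all names, and as background alone, the names called in the heart at 48 h were 10 with no threshold, 1 among mature arms, 0 with only the compared groups, 4 with pooled controls and 0 without rats 306 and 307. They were 1 in kidney at Tc,max with only the compared groups and 1 in liver with no threshold.

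Leaving out 1 library at a time gave 0 to 9 called names in the heart at 48 h (0 without rat 306 or 308), where differences ran from 1.51 to 2.31 for miR-146b-5p, -0.030 to 0.33 for miR-146a-5p and 0.051 to 0.45 for miR-146a. Kidney at Tc,max ran from -0.096 to 0.052 for miR-146a-5p and -0.057 to 0.0465 for miR-146a. Kidney at 48 h ran from -0.58 to 0.37 for miR-146b-5p and -1.18 to 0.19 for miR-146a-5p, and liver from -0.060 to 0.12 for miR-146a. In controls, kidney minus heart ran from -0.10 to 0.11 for miR-146a, kidney minus liver from 0.85 to 1.23 for miR-146b-5p, and kidney at 48 h minus 24 h from -0.11 to 0.25. The heat effect in kidney minus heart at 24 h ran from -0.23 to 0.10. Groups of 4 to 6 rats and 15 to 39 reads of miR-146b-5p per liver library limit the precision.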
